A study of Mus musculus with 10 samples.

Results

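Areg, Penk, Gzmb, Fgl2, Nt5e, Entpd1, Ebi3, Lrrc32 and Nrp1 encode molecules through which regulatory T cells (Tregs) suppress other cells or promote tissue repair. They were examined as 85 of the 97385 accessible chromatin regions (peaks) of the series, namely every peak that overlapped the body of 1 of the 9 genes or lay within 10 kb of it on GRCm38. For each gene, peaks were taken by position and not by their values. All 85 peaks passed the filter on low counts and were among the 97109 peaks of the whole table that were tested. Nrp1 held 27 of the 85, Entpd1 19, Lrrc32 13, Nt5e 10, Fgl2 6, Penk 4, Ebi3 4, and Areg and Gzmb 1 each.

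Accessibility was measured by ATAC-seq, in which a transposase cuts and tags open chromatin, in Foxp3-YFP+ TCRβ+ CD4+ Tregs sorted from spleen and lung of mice at 10 days of age. In Vps34-deficient mice (Foxp3CrePik3c3fl/fl), both copies of Pik3c3, the gene of the lipid kinase Vps34, were floxed and deleted by a Cre recombinase driven by Foxp3, hence in Tregs. Control mice carried the same Cre with Pik3c3+/+ or Pik3c3+/fl alleles, and which of these a control library came from was not given. There were 2 spleen control, 4 spleen Vps34-deficient, 2 lung control and 2 lung Vps34-deficient libraries. The study counts its groups in mice, while the sample labels do not tie a library to a mouse, and p-values measure the spread between these libraries. Since total Tregs were profiled, fewer effector Tregs in a sample and less accessibility per cell cannot be told apart.

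Library totals ran from 9405823 to 22439699 counts. The promoter of Pik3c3 stayed between 52.5 and 67.3 CPM (counts scaled to 1000000 per library total) and 0 of its 6 peaks was called in either tissue by edgeR. Whether a peak covers the deleted exon was not examined, so these values do not check the labels. Promoter peaks of 6 Treg markers (Foxp3, Il2ra, Ikzf2, Ctla4, Cd4 and Cd3e) summed to 166 to 193 CPM in the 6 spleen libraries and to 135 to 176 CPM in the 4 lung libraries. Markers of 3 other cell types were read in the same way, by summed promoter CPM in spleen control, spleen Vps34-deficient, lung control and lung Vps34-deficient libraries in this order. Myeloid markers gave 1.649 to 1.72, 1.67 to 2.62, 2.40 to 3.40 and 1.95 to 2.12 CPM, with no peak for Csf1r, Lyz2, Cd68 and Adgre1 among 6 genes. Epithelial markers gave 34.1 to 35.5, 28.3 to 32.4, 25.1 to 30.9 and 26.6 to 26.7 CPM, with none for Sftpc and Krt8 among 5. Most of this sum was Epcam, at 16.8 to 24.8 CPM. Cdh1 was lower in lung (5.93 to 6.63 CPM) than in spleen (6.85 to 9.89 CPM). Nkx2-1 was low but higher in lung (1.30 to 2.12 CPM) than in spleen (0.361 to 1.11 CPM). Endothelial markers gave 29.9 to 33.5, 31.9 to 35.8, 27.0 to 36.2 and 27.3 to 30.1 CPM, with no peak for Cdh5, Tek and Tie1 among 5. Most of that sum was Pecam1, at 24.0 to 29.7 CPM. Chromosome Y signal was 56.9 to 67.6 CPM in 5 libraries and 7.03 to 21.4 CPM in the other 5, and each group held the same number of both.

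Tregs restrain immune responses by several routes. They release granzyme B and the secreted suppressor FGL2, strip extracellular ATP to adenosine with the surface enzymes CD39 (Entpd1) and CD73 (Nt5e), share the EBI3 subunit between suppressive cytokines, and hold latent TGF-β on their surface with GARP (Lrrc32). In non-lymphoid tissues effector Tregs also make the growth factor amphiregulin (Areg) and the enkephalin precursor (Penk), while the co-receptor neuropilin-1 (Nrp1) marks Tregs of thymic origin and stabilizes them.

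Of 6 peaks called between genotypes within a tissue, the sequences of 5 are shown because the results turn on them, and the sixth, a weak peak of Entpd1, is described later. Each is the window of up to 300 bases centred on the peak, from the RefSeq GRCm38.p6 genome on the coding strand of the member, 5′ to 3′. Capitals mark the AP-1 consensus TGANTCA, the site bound by Jun, Fos and BATF dimers, which was searched on both strands. The Fgl2 downstream window (chr5:21384735-21385034, + strand) lies 12.2 kb past the Fgl2 start in an intron of Ccdc146. The Gzmb promoter window (chr14:56262261-56262481, - strand) was cut to the 221 bases upstream of the annotated start, leaving out 79 of the first exon, and its AP-1 match was centred 129 bases upstream of it. The windows of Nt5e (chr9:88332503-88332802, + strand) and Nrp1 (chr8:128473906-128474205 and chr8:128484144-128484443, + strand) are intronic, 5.46 kb, 115 kb and 126 kb from the gene starts.
Fgl2 downstream peak: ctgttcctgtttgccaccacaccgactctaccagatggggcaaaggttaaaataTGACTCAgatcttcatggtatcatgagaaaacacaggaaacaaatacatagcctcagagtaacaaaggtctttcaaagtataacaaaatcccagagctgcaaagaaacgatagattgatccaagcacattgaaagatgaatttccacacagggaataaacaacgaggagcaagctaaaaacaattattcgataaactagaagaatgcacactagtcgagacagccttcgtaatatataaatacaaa
Gzmb promoter peak: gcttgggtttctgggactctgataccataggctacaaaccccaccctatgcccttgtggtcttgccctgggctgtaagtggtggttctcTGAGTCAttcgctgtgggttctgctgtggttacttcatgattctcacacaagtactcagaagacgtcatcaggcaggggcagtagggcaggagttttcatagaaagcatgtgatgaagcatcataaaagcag
Nt5e intronic peak: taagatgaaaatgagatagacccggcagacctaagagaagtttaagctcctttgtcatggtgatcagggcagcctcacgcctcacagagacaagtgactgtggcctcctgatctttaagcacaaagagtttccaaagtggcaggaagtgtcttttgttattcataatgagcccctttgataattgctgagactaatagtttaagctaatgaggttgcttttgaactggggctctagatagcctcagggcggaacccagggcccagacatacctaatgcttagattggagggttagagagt
Nrp1 intronic peak at 115 kb: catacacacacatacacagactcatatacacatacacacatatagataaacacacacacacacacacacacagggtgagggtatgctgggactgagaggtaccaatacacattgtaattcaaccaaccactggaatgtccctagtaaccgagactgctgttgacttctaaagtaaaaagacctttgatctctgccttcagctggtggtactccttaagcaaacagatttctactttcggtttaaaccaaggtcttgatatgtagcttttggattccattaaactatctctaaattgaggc
Nrp1 intronic peak at 126 kb: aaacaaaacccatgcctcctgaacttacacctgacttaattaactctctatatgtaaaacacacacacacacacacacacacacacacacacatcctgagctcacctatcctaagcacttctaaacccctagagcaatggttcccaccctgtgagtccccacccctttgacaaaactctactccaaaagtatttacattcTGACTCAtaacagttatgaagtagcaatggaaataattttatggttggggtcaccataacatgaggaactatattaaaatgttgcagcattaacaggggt

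AP-1 letters stood in 3 of these 5 windows and in 17 of all 85 (20%), against 13% of 97250 windows of the same length over all peaks. Both peaks that were lower in Vps34-deficient spleen Tregs, at Gzmb and Fgl2, held them. In lung the same 2 of the 4 lower peaks held them, as did 1 of the 2 higher. The letters also stood in the promoter window of Fgl2 and in the Nt5e peak at 53.0 kb, neither of which was called between genotypes. Their share among all called peaks of the series was not computed. The STAT letters TTCNNNGAA were found in 7 of the 85 windows (8.24%, against 9.29% of all), the RUNX letters TGTGGT in 23 (27.1% against 26.5%), the ETS letters AGGAAG in 41 (48.2% against 43.2%), the forkhead letters TGTTTAC in 1 (1.18% against 4.34%) and an NF-κB consensus in 1 (1.18% against 0.8%). A match is a description of the sequence and not of binding.

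To ask what loss of Vps34 did at these genes, Vps34-deficient and control libraries were compared in each tissue. Peaks were called at an adjusted p below 0.05 over all peaks and an absolute log2 fold change above 0.5. In spleen, 2 of the 85 peaks were lower, at Gzmb and Fgl2, against 1.02% of all peaks tested. None was higher by edgeR, against 0.44% of all peaks, with 4 member peaks higher at an unadjusted p below 0.05 and 0 called by DESeq2. In lung, 4 peaks were lower (3.74% of all peaks), 1 each at Gzmb, Fgl2, Nt5e and Entpd1, and 2 were higher (1.22% of all peaks), both at Nrp1. The median log2 fold change of the 85 peaks was 0.04 in spleen and -0.07 in lung, beside 0.05 and 0.02 over all peaks tested. Libraries of the genotypes overlapped at 64 of the 85 peaks in spleen, with 2 against 4 libraries. In lung, with 2 against 2, they overlapped at 40. Groups this small often do not overlap, and the share over all peaks was not computed, so overlap below only describes the values.

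**Figure D1:**
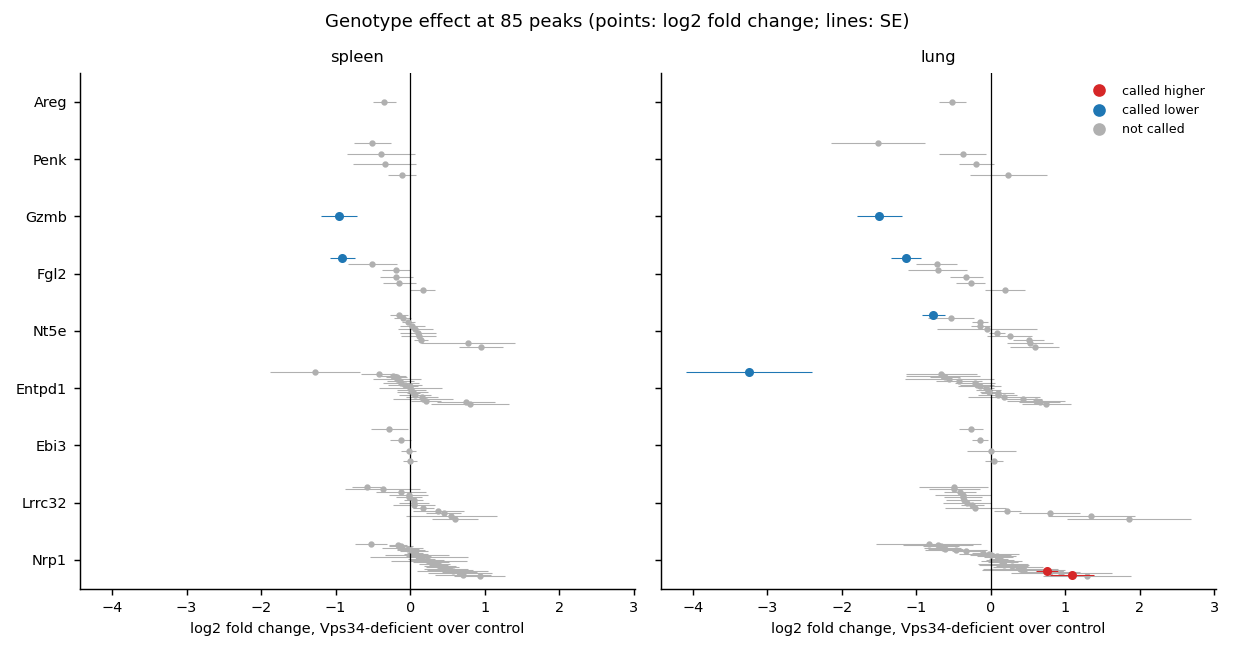
Log2 fold change of Vps34-deficient over control Tregs (x axis) for the 85 peaks, grouped by gene (y axis), in spleen and in lung. Each point is a peak, lines are standard errors, and colours mark called peaks; the calls are Gzmb and Fgl2 in spleen, and Gzmb, Fgl2, Nt5e, Entpd1 (lower) and Nrp1 (higher) in lung.

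Gzmb encodes granzyme B, the serine protease of cytotoxic granules. Its single peak (chr14:56262106-56262558) covered the promoter and the start of the first exon. It measured 5.88 and 5.51 CPM in control spleen, against 2.36, 2.69, 3.61 and 3.01 CPM in Vps34-deficient spleen. Lung gave 7.44 and 11.1 CPM in controls, then 3.74 and 2.96 CPM without Vps34. Every Vps34-deficient library lay below every control of its tissue, and all 6 lay below the lower spleen control. The fall was 0.95 on the log2 scale in spleen (log2 fold change -0.95, SE 0.24, adjusted p = 0.0475) and larger in size in lung (-1.50, SE 0.30, adjusted p = 0.00362), but the difference between tissues did not pass its test (unadjusted p = 0.174). Over both tissues the effect was -1.18 (SE 0.20, adjusted p = 0.000355) and stayed called under every setting run. The spleen call was at the edge and was lost without either spleen control library (adjusted p = 0.328 and 0.168) or without Vps34-deficient spleen replicate 1, 2 or 4 (0.102, 0.106 and 0.0974). The lung call was lost without lung control replicate 2 (log2 fold change -1.12, adjusted p = 0.115) or lung Vps34-deficient replicate 2 (-1.27, adjusted p = 0.0583).

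Counts at the Gzmb peak were 28 to 158 per library. CD8 T cells and NK cells also use granzyme B, and the promoter signal of 5 of their markers (Cd8a, Cd8b1, Ncr1, Klrb1c and Eomes) was summed. It was 28.1 to 32.5 CPM in spleen controls, 26.6 to 37.9 CPM in Vps34-deficient spleen, 23.6 to 27.6 CPM in lung controls and 33.0 to 39.6 CPM in Vps34-deficient lung. Ncr1 and Klrb1c had no peak, and Cd8a reached 9.53 CPM in lung Vps34-deficient replicate 2, against 1.49 to 4.06 CPM elsewhere. Most of the sum was Eomes (14.9 to 21.7 CPM) and Cd8b1 (6.35 to 13.1 CPM). Whether such cells bear on the Gzmb values was not tested.

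Among the other cytotoxic genes (Gzma, Gzmc, Gzmk, Gzmm, Prf1 and Srgn), 27 peaks were tested. In spleen 1 was lower and none higher, and in lung 2 were lower and none higher. The lower peak in both tissues was at Gzma, granzyme A, which averaged 3.76 CPM in spleen controls and 1.32 CPM in Vps34-deficient spleen (log2 fold change -1.52, SE 0.36, adjusted p = 0.0285), and 5.80 and 0.911 CPM in lung (-2.67, SE 0.48, adjusted p = 0.00140). A Gzmk peak, at the granzyme K gene, averaged 9.55 CPM in lung controls and 3.02 CPM without Vps34 (-1.71, SE 0.33, adjusted p = 0.00246). No gene of this list was called on its summed counts.

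Fgl2 encodes fibrinogen-like protein 2, a secreted protein that dampens dendritic and B cells. All 6 of its peaks lie within Ccdc146, a longer gene that overlaps it. The peak 12.2 kb downstream of the Fgl2 start (chr5:21384319-21385451), the strongest of the 6, measured 15.7 and 16.5 CPM in spleen controls and 9.46, 8.07, 7.49 and 9.33 CPM in Vps34-deficient spleen. In lung it measured 24.7 and 35.0 CPM in controls and 14.5 and 13.1 CPM without Vps34. The genotypes did not overlap in either tissue, and lung lay above spleen in both genotypes, so the Vps34-deficient lung libraries came out below the spleen controls. The log2 fold change was -0.91 in spleen (SE 0.17, adjusted p = 0.00415), -1.14 in lung (SE 0.20, adjusted p = 0.000994) and -1.01 over both (SE 0.13, adjusted p = 1.2e-05). The spleen call was lost without spleen control replicate 2 (-0.91, adjusted p = 0.0566) and the lung call without lung control replicate 2 (-0.81, adjusted p = 0.0582), while the combined effect was called under every setting run.

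The promoter of Fgl2 (chr5:21372439-21372902) was not called. It measured 14.4 and 13.4 CPM in spleen controls, 11.8, 12.6, 14.4 and 9.76 CPM in Vps34-deficient spleen, 10.6 and 15.5 CPM in lung controls and 11.5 and 9.74 CPM in Vps34-deficient lung. The ranges of the genotypes overlapped in both tissues (log2 fold change -0.19, SE 0.18, adjusted p = 0.713 in spleen and -0.33, SE 0.22, adjusted p = 0.427 in lung). The other 4 Fgl2 peaks were not called for genotype. Of the receptors of FGL2 and the related fibrinogen genes (Fcgr2b, Fcgr3, Fgl1, Fga, Fgb and Fgg), Fcgr2b and Fcgr3 had no peak, and 0 of 6 peaks was called in either tissue by edgeR or DESeq2, with 0 at an unadjusted p below 0.05.

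**Figure D2:**
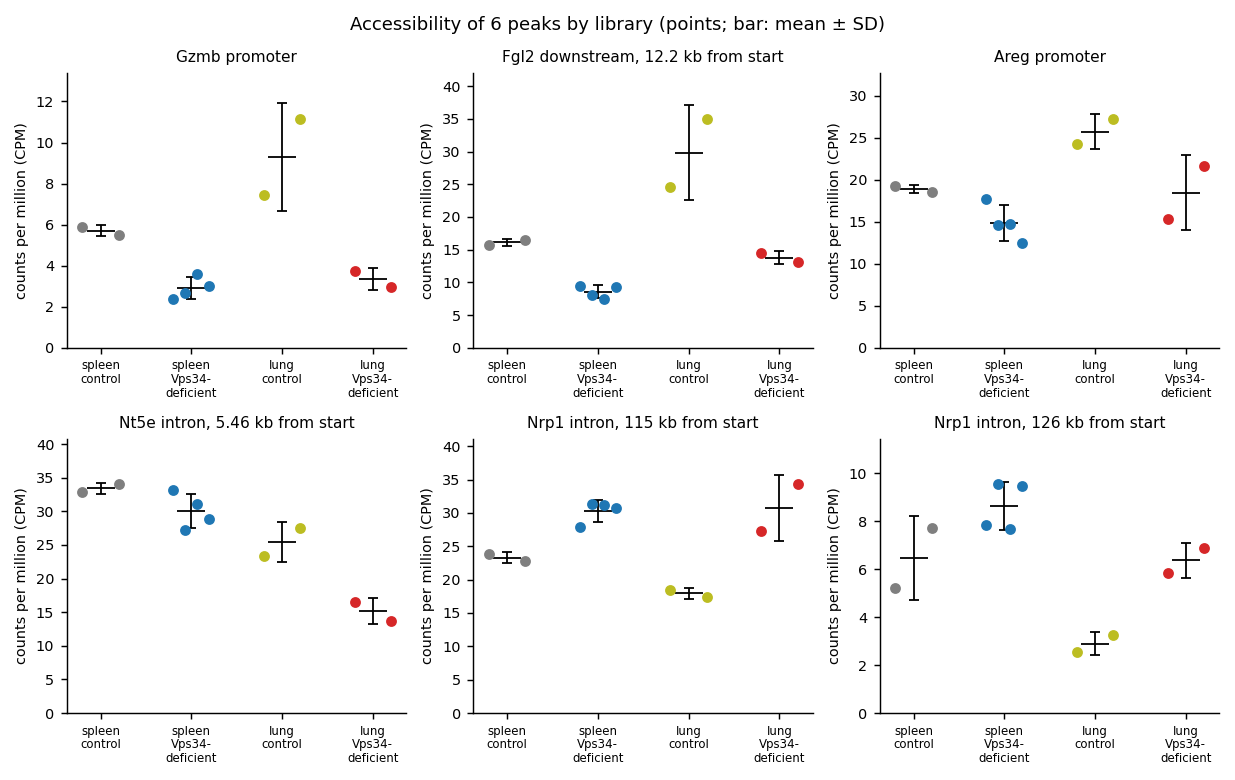
CPM (y axis, from 0) of 6 peaks in the 10 libraries by group (x axis), with points for libraries and bars for the group mean ± SD. Gzmb and the Fgl2 downstream peak are lower in all Vps34-deficient libraries of each tissue, the Nt5e intronic peak falls to 13.8 and 16.6 CPM in Vps34-deficient lung, and the Nrp1 peaks rise there.

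Areg encodes amphiregulin, the EGF receptor ligand with which Tregs aid repair of lung and muscle. Its only peak (chr5:91139069-91140010) spans the promoter. It measured 19.3 and 18.6 CPM in spleen controls against 17.7, 14.6, 14.7 and 12.5 CPM in Vps34-deficient spleen, and 24.2 and 27.2 CPM in lung controls against 15.3 and 21.6 CPM in Vps34-deficient lung. All Vps34-deficient libraries lay below the controls of their tissue. Neither tissue passed the test on its own (-0.35, SE 0.16, adjusted p = 0.308 in spleen and -0.52, SE 0.19, adjusted p = 0.115 in lung). The effect over both tissues was -0.42 (SE 0.12, adjusted p = 0.0306), past the adjusted p but under the fold minimum. In control Tregs the lung level was above the spleen level in both libraries, at an adjusted p of 0.0526. Of the related EGF receptor ligands (Ereg, Btc, Epgn, Hbegf, Tgfa and Egf), 17 peaks were tested and 1 was called in lung. It lay at Epgn, the epigen gene, and averaged 8.63 CPM in lung controls and 1.93 CPM without Vps34 (-2.18, SE 0.36, adjusted p = 0.000648). None of the 17 was called in spleen by edgeR or DESeq2, with 1 at an unadjusted p below 0.05.

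Penk encodes the enkephalin precursor. Its promoter peak (chr4:4138619-4139126) measured 13.6 and 14.3 CPM in spleen controls and 12.1 to 13.6 CPM in Vps34-deficient spleen (n = 4). Lung gave 8.93 and 17.1 CPM in controls and 12.3 and 11.0 CPM without Vps34. The lung controls thus spread more widely than the genotypes differed (log2 fold change -0.11, SE 0.19 in spleen and -0.20, SE 0.23 in lung). None of the 4 Penk peaks was called for genotype or tissue by edgeR or DESeq2; 1 had an unadjusted p below 0.05 in lung and 2 over both tissues. Among opioid genes (Pdyn, Pomc, Oprd1, Oprk1, Oprm1 and Pnoc), with 29 peaks tested and none at Oprk1, 1 peak was called in lung. It was at Oprd1, the delta opioid receptor gene, at 2.55 CPM in lung controls and 0.537 CPM without Vps34 (-2.20, SE 0.61, adjusted p = 0.0337).

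Nt5e and Entpd1 act in sequence, CD39 turning ATP into AMP and CD73 turning AMP into adenosine. Neither promoter was called for genotype. The Nt5e promoter peak (chr9:88327241-88327978) averaged 49.9 CPM in spleen controls and 46.4 ± 3.12 (SD, n = 4) in Vps34-deficient spleen, then 38.5 and 48.6 CPM in lung controls and 43.2 and 37.3 CPM in Vps34-deficient lung (log2 fold change -0.10, SE 0.11 and -0.14, SE 0.13). The Entpd1 promoter peak (chr19:40611919-40612587), the strongest of the 85, measured 60.9 to 74.4 CPM over all 10 libraries (0.04, SE 0.09 in spleen and -0.07, SE 0.11 in lung). It overlaps Tctn3.

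The Nt5e peak in an intron 5.46 kb past the start (chr9:88332352-88332955) was lower in lung without Vps34. It measured 32.8 and 34.0 CPM in spleen controls, 33.1, 27.3, 31.1 and 28.9 CPM in Vps34-deficient spleen, 23.4 and 27.6 CPM in lung controls, and 16.6 and 13.8 CPM in Vps34-deficient lung. The genotypes overlapped in spleen (-0.15, SE 0.12, adjusted p = 0.651) and did not in lung (-0.77, SE 0.16, adjusted p = 0.00398). The lung call was lost without lung control replicate 2 (-0.60, adjusted p = 0.0895), without lung Vps34-deficient replicate 2 (-0.57, adjusted p = 0.0799) and with lung libraries alone (adjusted p = 0.0802). The difference between the tissues was -0.62 with an unadjusted p of 0.00478, the smallest of the 85 peaks, and an adjusted p of 0.454.

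A Nt5e peak 7.63 kb upstream of the start (chr9:88319461-88319674) was higher without Vps34 over both tissues. It measured 1.52 and 2.48 CPM in spleen controls, 3.76, 2.94, 3.70 and 4.74 CPM in Vps34-deficient spleen, 6.38 and 4.52 CPM in lung controls and 8.93 and 6.77 CPM in Vps34-deficient lung, on 34 to 110 counts. Every Vps34-deficient library lay above the controls of its tissue (average log2 fold change 0.75, SE 0.22, adjusted p = 0.0313). The call was lost without spleen control replicate 1 (0.56, adjusted p = 0.159), Vps34-deficient spleen replicate 1 or 4, lung control replicate 2 or lung Vps34-deficient replicate 1 (0.0531 to 0.0837).

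In Entpd1, a weak intronic peak 5.75 kb past the start (chr19:40617982-40618260) was called lower in lung and over both tissues. It held 42 counts in the 2 lung controls and 4 in the 2 Vps34-deficient lung libraries, or 1.91 and 1.69 CPM against 0.162 and 0.212 CPM. The ratio of these sums was 0.103 (95% exact conditional interval 0.0117 to 0.422 on fragments, for counting error only). The call was lost without lung control replicate 2 or either Vps34-deficient lung library (adjusted p = 0.0963, 0.164 and 0.107), and the combined call without spleen control replicate 2 or either Vps34-deficient lung library (0.0718, 0.0653 and 0.0534). The other 18 Entpd1 peaks were not called for genotype in either tissue.

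Among other genes of adenosine metabolism and sensing (Ada, Adk, Dpp4, Cd38, Enpp1, Adora2a, Adora2b and Slc29a1), 3 of 72 peaks were called in lung, all higher. They were 2 peaks at Enpp1, an ectonucleotidase that also consumes ATP, and 1 at Adk, adenosine kinase. The stronger Enpp1 peak averaged 3.32 CPM in lung controls and 8.99 CPM without Vps34 (1.39, SE 0.27, adjusted p = 0.00314). The Adk peak had 0 counts in both lung controls. None of the 72 was called in spleen by edgeR or DESeq2, with 12 at an unadjusted p below 0.05.

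Ebi3 encodes the beta chain shared by IL-35 and IL-27. Its promoter peak (chr17:55952455-55952790) was low, at 4.14 and 5.92 CPM in spleen controls, 3.73 to 4.87 CPM in Vps34-deficient spleen, 3.40 and 3.53 CPM in lung controls and 4.06 and 2.96 CPM in Vps34-deficient lung. The strongest peak near it, at 53.6 to 66.1 CPM, lies at the start of the neighbouring Yju2, and 3 of the 4 peaks counted for Ebi3 are nearer to the start of another gene. None of the 4 was called in any comparison by edgeR or DESeq2 and 0 had an unadjusted p below 0.05. Of the partners and receptors of these cytokines (Il12a, Il27, Il27ra, Il12rb2, Il6st, Il12b and Il23a), 5 of 38 peaks were higher in lung without Vps34, 4 at Il12rb2 and 1 at Il6st, which encode the chains of the IL-35 receptor. The strongest of these 4 Il12rb2 peaks averaged 9.52 CPM in lung controls and 16.9 CPM without Vps34 (0.83, SE 0.20, adjusted p = 0.0180). None was called in spleen by edgeR or DESeq2, with 3 at an unadjusted p below 0.05.

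Lrrc32 encodes GARP, the docking protein for latent TGF-β. Its promoter peak (chr7:98488388-98489286) measured 24.4 and 23.8 CPM in spleen controls, 20.6, 27.1, 29.9 and 31.4 CPM in Vps34-deficient spleen, 17.0 and 17.4 CPM in lung controls, and 22.0 and 18.6 CPM in Vps34-deficient lung. Neither genotype difference passed the test (0.18, SE 0.15, adjusted p = 0.649 in spleen and 0.22, SE 0.18, adjusted p = 0.519 in lung). None of the 13 Lrrc32 peaks was called for genotype by edgeR or DESeq2, with 1 in spleen and 2 in lung at an unadjusted p below 0.05. An intronic peak 3.79 kb past the start (chr7:98492892-98493263) passed the adjusted p over both tissues but not the fold minimum (-0.496, SE 0.15, adjusted p = 0.0354). Its genotypes did not overlap in spleen, at 14.3 and 16.3 CPM in controls and 8.54 to 11.6 CPM without Vps34, but overlapped in lung. Among genes that present or release TGF-β (Tgfb1, Itgav, Itgb8, Furin, Nrros, Ltbp1 and Ltbp3), 1 of 65 peaks was higher and 2 lower in lung, and 0 were called in spleen by edgeR or DESeq2, with 12 at an unadjusted p below 0.05. Both chains of the integrin that activates TGF-β were among them, in opposite directions, Itgb8 at 1.49 CPM in lung controls and 4.21 CPM without Vps34 (1.48, SE 0.38, adjusted p = 0.0239) and Itgav at 21.4 and 8.87 CPM (-1.30, SE 0.20, adjusted p = 0.000273). The remaining one was at Nrros (-0.63, SE 0.19, adjusted p = 0.0496).

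Nrp1 encodes neuropilin-1, a receptor for semaphorins and VEGF. Its promoter peak (chr8:128357822-128359149) measured 34.1 to 43.8 CPM over all 10 libraries (0.07, SE 0.10 in spleen and 0.10, SE 0.13 in lung). An intronic peak 115 kb past the start (chr8:128473818-128474294) was higher without Vps34. It measured 23.9 and 22.7 CPM in spleen controls, 27.8, 31.3, 31.2 and 30.7 CPM in Vps34-deficient spleen, 18.5 and 17.4 CPM in lung controls, and 27.3 and 34.3 CPM in Vps34-deficient lung. The genotypes did not overlap in either tissue. The log2 fold change was 0.76 in lung (SE 0.15, adjusted p = 0.00282) and 0.53 over both tissues (SE 0.10, adjusted p = 0.00126), while spleen alone gave 0.38 (SE 0.12, adjusted p = 0.121). The lung call was kept without each library in turn and was lost with lung libraries alone (adjusted p = 0.0597). The combined effect fell under the fold minimum without lung control replicate 2 or lung Vps34-deficient replicate 2 (0.46 and 0.44).

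A second intronic peak, 126 kb past the start (chr8:128484095-128484493), measured 5.21 and 7.71 CPM in spleen controls, 7.86, 9.54, 7.67 and 9.47 CPM in Vps34-deficient spleen, 2.55 and 3.25 CPM in lung controls and 5.85 and 6.88 CPM in Vps34-deficient lung. The genotypes overlapped in spleen and did not in lung (1.08, SE 0.29, adjusted p = 0.0304). This call was lost without any 1 of the 4 lung libraries (adjusted p = 0.0519 to 0.0991) and with lung libraries alone. Of 48 peaks at neuropilin ligands and partners (Nrp2, Sema3a, Sema4a, Plxna1, Plxna4, Plxnb2, Vegfa and Kdr), 1 was called in spleen, higher at Sema4a, which encodes a semaphorin bound by Nrp1 on Tregs. It averaged 8.70 CPM in spleen controls and 15.6 CPM without Vps34 (0.84, SE 0.19, adjusted p = 0.0226). None was called in lung by edgeR or DESeq2, with 4 at an unadjusted p below 0.05.

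Averaged over both tissues, 3 of the 85 peaks were lower (4.05% of all peaks) and 3 higher (3.52% of all peaks). The lower peaks were those of Gzmb, Fgl2 and Entpd1 given above, and the higher ones the 2 of Nrp1 and the upstream peak of Nt5e. By position, 1 of the 16 peaks at a start was called in lung and 5 of the 69 others. The shares called among all peaks of each position were not computed, so this is not read as a trait of these genes. Whether the genotype effect differed between lung and spleen was tested peak by peak, and 0 of the 85 passed by edgeR or by DESeq2, as did 0 of all peaks with edgeR (0%). At an unadjusted p below 0.05 there were 8 of the 85, and 7.28% of all peaks.

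The tissue comparison asked how these genes differ between lung and spleen Tregs. In control Tregs, 8 of the 85 peaks were higher in lung (11.8% of all peaks) and 5 lower (3.53% of all peaks). In Vps34-deficient Tregs, 7 were higher (12.4% of all peaks) and 10 lower (4.72% of all peaks). The median log2 difference of the 85 peaks was -0.04 in control and -0.08 in Vps34-deficient Tregs, beside 0.04 and -0.03 over all peaks. Libraries of the tissues overlapped at 37 of the 85 peaks in control and at 48 in Vps34-deficient Tregs. The Vps34-deficient spleen group held more libraries than the control groups, and the share over all peaks was not computed. These overlap counts are therefore not compared between genotypes. Nrp1, with 27 of the 85 peaks, held 8 of the 13 calls in control Tregs and 9 of the 17 in Vps34-deficient Tregs. Of these 30 calls 1 lay at a promoter, that of Gzmb, while 16 of the 85 peaks were promoter peaks. The shares of tissue calls at promoter and other peaks over the whole table were not computed, so this is not read as a trait of these genes. The summed Treg marker promoters given above were also at lower levels in lung, with some overlap, and their part in these differences was not tested.

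**Figure D3:**
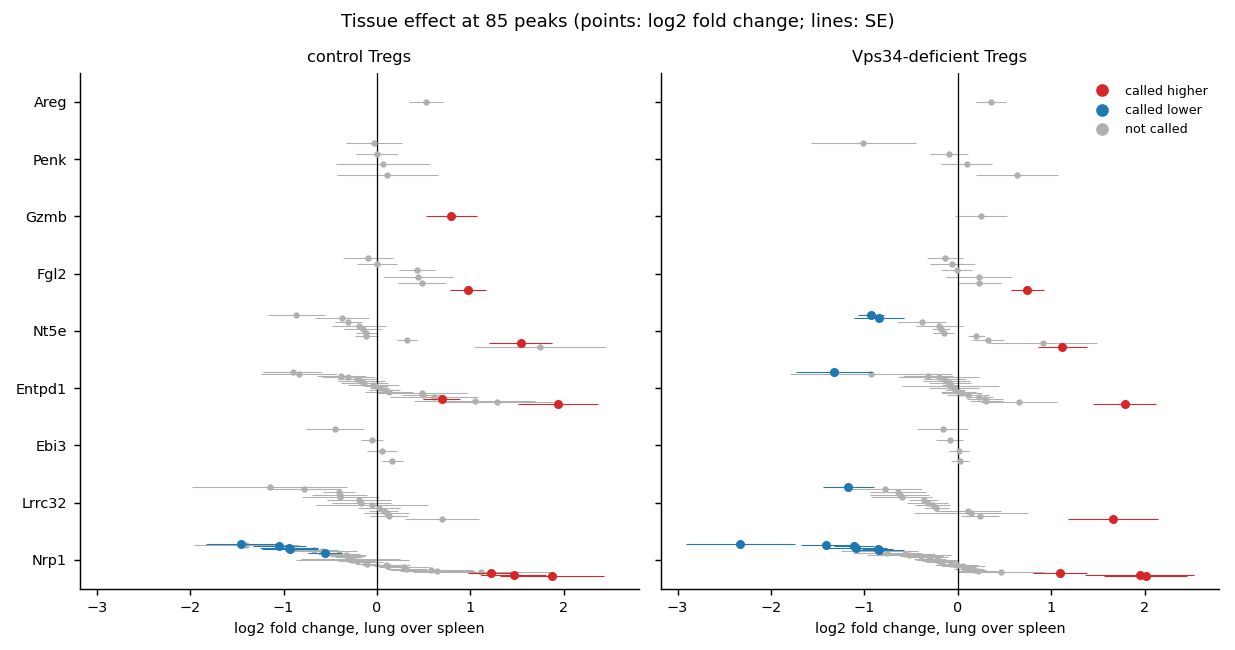
Log2 fold change of lung over spleen (x axis) for the 85 peaks, grouped by gene (y axis), in control and in Vps34-deficient Tregs, with standard errors as lines and called peaks in colour. In control Tregs 8 peaks are higher and 5 lower, in Vps34-deficient Tregs 7 and 10, and none of the peaks of Areg, Penk and Ebi3 is called.

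The Fgl2 downstream peak was more open in lung in both genotypes, by 0.97 in control Tregs (SE 0.19, adjusted p = 0.00121) and 0.74 in Vps34-deficient Tregs (SE 0.18, adjusted p = 0.00464), on the values given above. The control call was lost without spleen control replicate 1 (0.83, adjusted p = 0.0528) or lung control replicate 2 (0.60, adjusted p = 0.0609). The Gzmb promoter was higher in lung in control Tregs (0.80, SE 0.27, adjusted p = 0.0491), a call that 7 of 8 other settings and 9 of 10 leave-outs lost, with 0.37 and an adjusted p of 0.512 without lung control replicate 2. In Vps34-deficient Tregs it gave 0.25 (SE 0.28, adjusted p = 0.593).

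The upstream peaks of both ectoenzyme genes were higher in lung. The Nt5e peak at 7.63 kb rose by 1.54 in control Tregs (SE 0.34, adjusted p = 0.00295; 1.09 and 0.121 without spleen control replicate 1) and by 1.12 in Vps34-deficient Tregs (SE 0.26, adjusted p = 0.00423; 0.95 and 0.0801 without lung Vps34-deficient replicate 1). The Entpd1 peak 7.70 kb upstream (chr19:40604565-40604776), which lies in Tctn3, measured 1.34 and 0.827 CPM in spleen controls and 5.10 and 3.10 CPM in lung controls. In Vps34-deficient Tregs it measured 2.09, 2.08, 0.993 and 2.44 CPM in spleen and 5.52 and 6.99 CPM in lung. The groups did not overlap in either genotype (1.94, SE 0.43, adjusted p = 0.00331 and 1.79, SE 0.33, adjusted p = 0.000606). The control call was lost without spleen control replicate 2 or lung control replicate 1 (adjusted p = 0.0540 and 0.0581).

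The Nt5e intronic peak at 5.46 kb was lower in lung without Vps34 (-0.93, SE 0.14, adjusted p = 5.39e-05), and this call was kept under every setting run. In control Tregs the same difference was -0.31 (SE 0.15, adjusted p = 0.161). An Entpd1 intronic peak 27.7 kb past the start (chr19:40639839-40640361) was higher in lung controls, at 20.6 and 20.5 CPM against 12.1 and 14.7 CPM in spleen (0.69, SE 0.20, adjusted p = 0.0191). It was lost without spleen control replicate 1 (0.45, adjusted p = 0.302) or either lung control (0.0889 and 0.0817). In Vps34-deficient Tregs, 3 weaker peaks were lower in lung and 1 was higher. The lower ones were Nt5e at 39.3 kb (-0.85, SE 0.27, adjusted p = 0.0307), Entpd1 at 53.6 kb (-1.33, SE 0.40, adjusted p = 0.0240) and Lrrc32 at 4.21 kb upstream (-1.17, SE 0.27, adjusted p = 0.00383). The higher one was Lrrc32 at 11.7 kb (1.66, SE 0.48, adjusted p = 0.0181), on 4 to 39 counts per library. The Nt5e and the higher Lrrc32 calls were lost without lung Vps34-deficient replicate 1 (log2 fold change -0.46, adjusted p = 0.410 and 1.43, adjusted p = 0.169), the lower Lrrc32 call without replicate 2 (0.0930) and the Entpd1 call without either (0.165 and 0.113), while the Nt5e call was also lost without spleen control replicate 2 (0.0570) or spleen Vps34-deficient replicate 3 (0.0564).

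Nrp1 differed between tissues in both directions along its length, and the peaks described are the 3 called with the smallest p in each genotype and those called between genotypes. A peak 7.21 kb upstream (chr8:128351135-128351657) measured 4.46 and 4.55 CPM in spleen controls and 2.55 and 1.98 CPM in lung controls. Without Vps34 it measured 7.65, 6.12, 6.32 and 8.33 CPM in spleen and 2.60 and 2.54 CPM in lung. Spleen lay above lung throughout (-0.93, SE 0.30, adjusted p = 0.0381 in control and -1.41, SE 0.27, adjusted p = 0.000737 in Vps34-deficient Tregs). An intronic peak 29.1 kb past the start (chr8:128387338-128388042) was lower in lung in the same way (-0.56, SE 0.18, adjusted p = 0.0360 and -0.86, SE 0.17, adjusted p = 0.000856). The control call of the first was lost without either spleen control or lung control replicate 2 (adjusted p = 0.105, 0.0995 and 0.142), that of the second without spleen control replicate 2 or lung control replicate 1 (0.186 and 0.0649), and the Vps34-deficient calls were kept under every setting run.

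A pair of intronic peaks near 131 kb moved in opposite directions in Vps34-deficient Tregs. The first (chr8:128489356-128489790) measured 11.8 to 13.3 CPM in Vps34-deficient spleen and 4.39 and 6.77 CPM in Vps34-deficient lung (-1.11, SE 0.22, adjusted p = 0.000886; 0.0599 without lung Vps34-deficient replicate 1). In control Tregs it was not called, at 12.3 and 11.4 CPM in spleen and 6.91 and 9.88 CPM in lung (-0.41, SE 0.23, adjusted p = 0.239). The second, its neighbour at 132 kb (chr8:128490454-128490663), measured 3.57 and 2.76 CPM in spleen controls and 10.4 and 6.49 CPM in lung controls (1.46, SE 0.35, adjusted p = 0.00586), and was higher in lung without Vps34 too (1.09, SE 0.29, adjusted p = 0.00995). The control call was lost without either spleen control or lung control replicate 1 (adjusted p = 0.0529, 0.0748 and 0.101), and the other without lung Vps34-deficient replicate 2 (0.203).

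A peak 148 kb from the start, past the end of the gene (chr8:128505952-128506288), was higher in lung in control Tregs, at 12.8 and 17.1 CPM against 6.51 and 7.16 CPM (1.22, SE 0.24, adjusted p = 0.00134; 0.0560 without spleen control replicate 1). In Vps34-deficient Tregs it measured 10.4 and 8.68 CPM in lung and 6.24 to 10.6 CPM in spleen, which overlapped (0.21, SE 0.21, adjusted p = 0.543). The difference between the genotypes did not pass (unadjusted p = 0.0050, adjusted p = 0.460). The 126 kb peak and its neighbour in the same intron (chr8:128484825-128485073) were lower in lung control than in spleen control Tregs (-1.05, SE 0.28, adjusted p = 0.0135 and -1.46, SE 0.37, adjusted p = 0.00930). Both calls were lost without lung control replicate 1 (0.0639 and 0.0628), and that of the 126 kb peak also without spleen control replicate 2 (0.124).

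**Figure D4:**
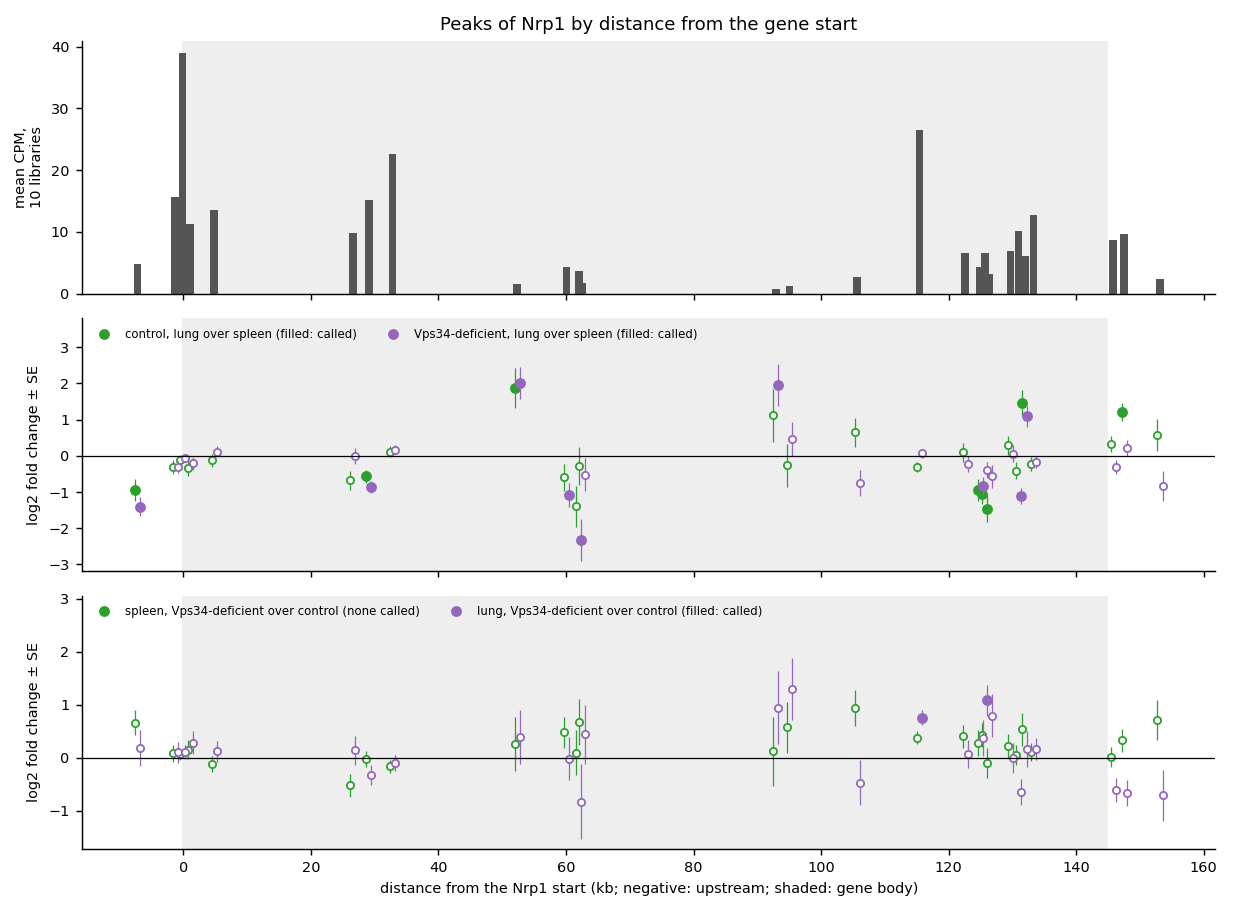
The 27 Nrp1 peaks by distance from the gene start (x axis, kb), with their mean CPM over the 10 libraries (top), the log2 fold change of lung over spleen in each genotype (middle) and of Vps34-deficient over control in each tissue (bottom), ± SE, filled where called. Tissue calls go both ways, while the 2 genotype calls, at 115 and 126 kb in lung, are higher.

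Each gene was also read as 1 value, the sum of its peaks. By this measure Gzmb and Fgl2 were lower in Vps34-deficient lung (3.5% of 17619 genes were called), and they were the 2 members called over both tissues (6.32% of genes). The Gzmb sum is its single peak. The Fgl2 sum was 60.2 and 58.3 CPM in spleen controls, 53.8, 48.1, 48.2 and 46.7 CPM in Vps34-deficient spleen, 68.8 and 85.7 CPM in lung controls, and 53.9 and 52.3 CPM in Vps34-deficient lung. The genotypes did not overlap (-0.51, SE 0.11, adjusted p = 0.0163 in lung and -0.36, SE 0.07, adjusted p = 0.00932 over both). Both lung calls were lost without lung control replicate 2 or either Vps34-deficient lung library. In spleen 0 of the 9 sums was called by edgeR (0.221% of genes), with 4 at an unadjusted p below 0.05.

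Fgl2 was the 1 sum called between tissues in control Tregs (0.44, SE 0.10, adjusted p = 0.0116, 14.5% of genes), and this was lost without either spleen control or lung control replicate 2. In Vps34-deficient Tregs 0 sums were called by edgeR (18% of genes), with 3 at an unadjusted p below 0.05. For the difference between tissues 0 of the 9 and 0% of all genes were called, with 0 of the 9 at an unadjusted p below 0.05. None of the sums of the other 7 genes was called in any of these comparisons. Entpd1 ran from 219 to 239 CPM and Ebi3 from 121 to 141 CPM over the 10 libraries. Nrp1 ran from 271 to 278 CPM in Vps34-deficient spleen against 257 and 247 CPM in spleen controls, a log2 difference of 0.13 over both tissues (SE 0.04) that missed the threshold (adjusted p = 0.0694).

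**Figure D5:**
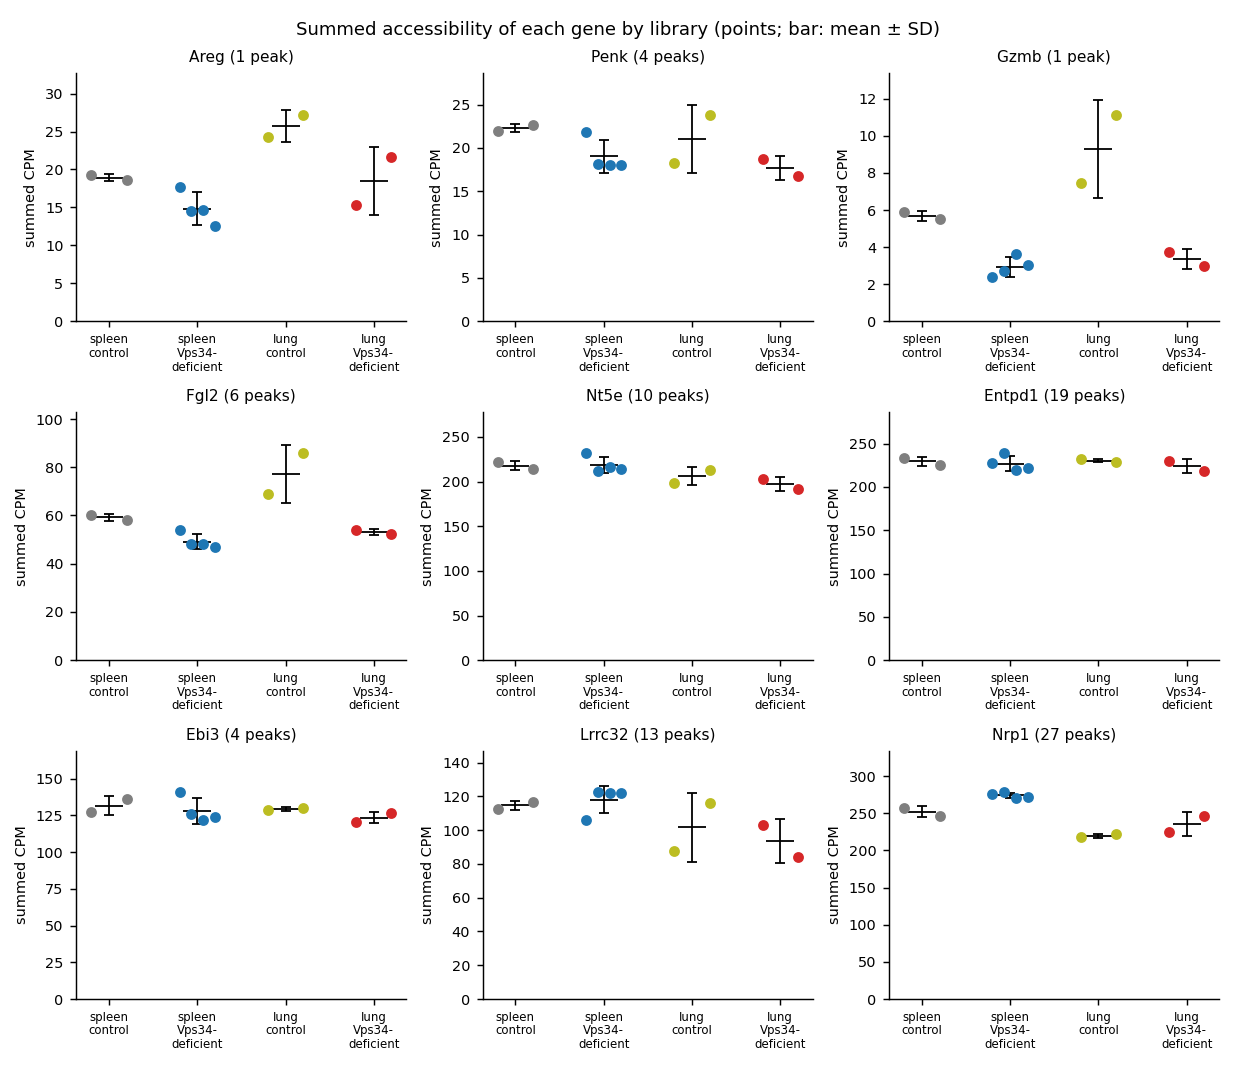
Summed CPM of the peaks of each gene (y axis, from 0) in the 10 libraries by group (x axis), with points for libraries and bars for the group mean ± SD. Gzmb and Fgl2 are lower in Vps34-deficient lung, while Entpd1 stays within 219 to 239 CPM and Ebi3 within 121 to 141 CPM.

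The genes whose sums ran most like each member over the 10 libraries were read by Pearson's r on log2 CPM, as a description, since all genes share the libraries and their groups. They were Rhoc (r = 0.987) and Nr1d1 (0.970) for Gzmb, Lamc1 (0.987) and Dusp16 (0.977) for Fgl2, and Ccr3 (0.963) and Mlf1 (0.952) for Areg. For Nrp1 they were Ppp2r1b (0.977) and Cfap53 (0.976), for Lrrc32 Zfp541 (0.988) and Bcl11b (0.984), and for Nt5e Btf3 (0.975) and Gpr160 (0.975). The likeness was lower for Penk with Rabgef1 (0.915) and Mppe1 (0.909), for Entpd1 with Olfr558 (0.867) and Clrn2 (0.852), and for Ebi3 with Jcad (0.860) and Ofd1 (0.850). No pair shared a peak.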

How the data were processed

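ATAC-seq was measured in 10 libraries of sorted Tregs. Per the study's methods, the authors trimmed and aligned paired reads, removed duplicates, corrected for the Tn5 offset, kept nucleosome-free fragments, called peaks per sample with MACS2, retained peaks seen in 50% or more of one genotype's replicates, and merged these. The authors deposited raw counts for each peak, as whole numbers without normalization. Both mates of a fragment were counted (91.5% to 96.5% of counts were even), so counts overstate fragments. The labels name GRCm38 and the methods an older build; scaffold names and positions were those of GRCm38, used here with GENCODE M21 and counted from 1. The methods give the spleen group sizes the other way round, and the labels were followed.

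Counts of all peaks were filtered with filterByExpr and TMM-scaled, and edgeR 4.0.16 (R 4.3.3) quasi-likelihood tests were fitted to all 10 libraries in 4 groups, with Benjamini-Hochberg adjustment over all peaks. An additive fit of tissue plus genotype gave the combined effect. Summed counts were called at an adjusted p below 0.05 with no fold minimum. Standard errors were |log2 fold change| over the root of F. CPM used column totals. Peaks within 1 kb of a start were promoter peaks. The members, lists, markers, motifs and the rule for the peaks named (promoter, strongest, and up to 3 called per gene and comparison) were chosen with earlier results of these data known. Scripts were tested on simulated data. Alternatives were other scalings, DESeq2 1.42.0, no filter, halved counts, other thresholds and gene bodies alone, a replicate block, the chromosome Y class as a covariate, subsets of libraries and leaving out each library. All replicate pairs differed by more than counting noise on halved counts (chi-square over its degrees of freedom, 1.38 to 2.59). Deviations of libraries that shared a replicate number were not alike (correlations -0.098 to 0.063). The chromosome Y class of replicates 1 and 2 was, however, the same in spleen and lung of each genotype. Whether a number links libraries of 1 mouse is not given and was not settled. The markers of 1 further cell type are not reported here.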

Additional observations from a re-analysis of the deposited data

Results flagged for a closer look

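Among 39 values tested for a library far from the other 3 of the Vps34-deficient spleen group, 5 stood apart by Dixon's criterion, where chance flags about 1 in 20. They were the 115 kb Nrp1 peak (27.8 CPM in replicate 1, below the rest), the Nrp1 peak at 132 kb (2.44 CPM in replicate 3), the Lrrc32 peak at 11.7 kb (0.431 CPM in replicate 4), and the sums of Penk (21.8 CPM) and Lrrc32 (106 CPM), both in replicate 1. Groups of 2 libraries were not tested. No other result met a criterion for a closer look.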

How the results depend on the processing

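Of the values of single peaks that were called, 298 of 370 kept their call when 1 library was left out and 302 of 327 under the other settings, all with the same direction. The 370 also count libraries outside the groups compared, so they overstate how well calls held without a library of their own groups. Genotype calls within a tissue were kept in 5 to 10 of 10 leave-outs, and every loss came without a library of that tissue. With 1 library left out, the number of member peaks lower in spleen was 0 to 3 (0 without spleen control replicate 2), in lung 0 to 5 lower (0 without lung control replicate 2) and 1 to 2 higher, and over both tissues 0 to 3 higher. Between tissues it was 1 to 7 higher and 1 to 11 lower in control Tregs (1 higher without spleen control replicate 1; 1 lower without spleen control replicate 2, 2 without lung control replicate 1, 3 without spleen control replicate 1, 11 without lung control replicate 2, and 8 without spleen Vps34-deficient replicate 1 or 3 or either lung Vps34-deficient library), and 5 to 10 lower in Vps34-deficient Tregs. Members called on sums were 0 to 2 in lung, 0 to 2 between tissues in control and 0 to 1 in Vps34-deficient Tregs.

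The replicate block gave 0 peaks lower in spleen and 0 sums called in lung. Between tissues it gave 2 lower in control Tregs and 2 higher in Vps34-deficient Tregs. Whether a number links libraries is not known, and the block joins both genotypes under 1 number. A call lost with it therefore need not be a weaker effect. Lung libraries alone gave 0 higher in lung. Adjusted p alone gave 6 lower over both tissues. Gene bodies alone gave 1 lower in spleen and, between tissues, 4 higher in each genotype, since fewer peaks count. Peaks lower in lung controls numbered 8 with library size scaling, 8 with no filter, 9 with halved counts and 1 with control libraries alone; the cause was not tested.

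Some values that were not called changed sign, and not all of them were near 0 (the Fgl2 promoter gave -0.33 in lung). With the block these were Ebi3 at 6.71 kb (0.0758), the Lrrc32 promoter (-0.0049) and Nt5e at 53.0 kb (0.044) in spleen, and with no filter the Ebi3 promoter in lung (-0.001). With 1 library left out, ranges were -0.18 to 0.28 (Ebi3 promoter), -0.12 to 0.13 (Entpd1 promoter), -0.46 to 0.0271 (Fgl2 promoter), -0.35 to 0.0369 (Lrrc32 at 2.67 kb), -0.195 to 0.0883 (Nt5e promoter) and -0.47 to 0.41 (Penk promoter) in lung, and -0.10 to 0.0047 (Ebi3 at 6.71 kb), -0.0379 to 0.0584 (Entpd1 promoter), -0.0558 to 0.0758 (Lrrc32 at 2.67 kb) and -0.11 to 0.18 (Nrp1 promoter) in spleen. The effect over both tissues at Areg was -0.33 to -0.50 over all settings, with an adjusted p of 0.011 to 0.133.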
